A study of Mus musculus with 11 samples.

Results

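Apical progenitors (APs) low in G2/M transcripts were taken from the single-cell RNA-seq (scRNA-seq) of E14.5 mouse neocortex by limits on raw transcript counts, and 864 of 16335 kept cells met them. The members were thus chosen by measured values of these same libraries, and differences in the genes used are given as a description. A cell was kept with at least 1000 detected genes and at most 10% of its counts from mitochondrial genes. It counted as a member when its unique molecular identifiers (UMIs, 1 for each captured transcript) of Sox2, Pax6, Slc1a3, Mfge8 and Sox9 summed to at least 5, Eomes had at most 1, the interneuron genes Dlx1, Dlx2, Dlx5 and Dlx6os1 had at most 1, the neuronal genes Neurod2 and Neurod6 had at most 3, and the G2/M genes Top2a, Mki67, Cenpf and Ccnb1 had fewer than 10 together. The WT library gave 334 members of 7554 kept cells (4.42%, exact binomial 95% interval 3.97 to 4.91) and the cKO library 530 of 8781 (6.04%, 5.55 to 6.55). Cells that met every limit except the last, with 10 or more G2/M UMIs, are called high-G2/M APs here and numbered 266 in WT and 358 in cKO. Kept cells of the GE and excitatory neuron gates, by comparison, made up 12% and 47.7% in WT and 15.2% and 42.9% in cKO, and genotype and what each dissection held cannot be told apart in these shares. The low-G2/M members made up 55.7% of both AP gates in WT (51.6 to 59.7) and 59.7% in cKO (56.4 to 62.9). All intervals on cells and UMIs cover counting error only.

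The scRNA-seq came from dorsal cortex of 1 WT and 1 Syncrip cKO embryo of a shared pregnant mouse, both at E14.5. The cKO carries Syncrip alleles with loxP sites around exons 2 to 4 (Syncrip fl/fl) and Emx1-Cre, which acts in progenitors of the dorsal telencephalon and their descendants, while cells of the ganglionic eminence (GE) arise outside its domain. The sources used here do not give the alleles of the WT embryo. The second experiment was bulk RNA-seq of neural progenitor cells (NPCs) dissected from lateral ventricles at E14.5 and grown with EGF and bFGF. There were 3 WT and 3 cKO cultures. The methods name the cultured mice as Syncrip cKO and do not state their Cre driver. That name stands for the Emx1-Cre cross in the study's results and covers Nestin-Cre crosses too in its methods. Whether each culture came from its own embryo is not stated. With 1 embryo per genotype no test between genotypes is possible in the cells, so levels are given as UMIs per 1000000 UMIs (CPM) of the summed members and differences as log2 ratios of cKO over WT with exact 95% intervals. The cultures are the replicated measure, tested with edgeR's quasi-likelihood test, and are another population from the members: cells grown without the tissue around them.

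APs, the radial glia of the neocortex, line the ventricle, carry a process to the pial surface and divide at the ventricular surface after their nuclei have moved there during G2. They renew themselves under Notch signaling, whose Hes effectors repress proneural factors such as Neurog2, and produce intermediate progenitors (IPs), which switch on Eomes, and neurons. Topoisomerase II alpha, Ki67, CENP-F and cyclin B1, the products of the 4 genes used for the upper limit, accumulate from S phase to mitosis, so that cells with few of these transcripts are mostly those in G1 and S or those about to leave the cycle.

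Members held 4343627 UMIs in WT and 6449209 in cKO, with medians of 12086 and 11673.5 UMIs and 4229 and 4202 genes per cell. High-G2/M APs were deeper, at medians of 17063.5 and 16817 UMIs. The share of mitochondrial UMIs had a median of 1.49% in WT members and 1.35% in cKO members. The embryos differed in sex: the kept cells held 2 UMIs of Xist in WT and 104780 in cKO, and 22047 and 233 UMIs of Y-linked genes, so that genotype, sex and embryo cannot be told apart in these cells. Of 22 barcodes that occurred in both libraries, 2 were members in either and 0 in both. Scrublet called 249 kept WT cells (3.30%) and 371 kept cKO cells (4.23%) as doublets, among them 0 WT and 4 cKO members.

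Syncrip, the gene deleted in the cKO, stood at 278 CPM in WT members (263 to 294) and 301 CPM in cKO members (288 to 315), a log2 ratio of 0.11 (0.01 to 0.22). The libraries were read from the 3′ end, beyond the deleted exons 2 to 4, so this level does not check the deletion. In the GE gate (908 WT and 1335 cKO cells with 5 or more UMIs of the Dlx genes), outside the Emx1-Cre domain, the log2 ratio was -0.18 (-0.25 to -0.12). The NPC cultures held 77.9, 79.8 and 79.9 CPM of Syncrip in WT and 90.3, 88.7 and 81.5 CPM in cKO, counted over the whole gene, with a log2 fold change of 0.13 (SE 0.08, edgeR adjusted p = 0.180).

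The members were checked against AP markers, of which Sox2 belongs to the sum that chose them, so its share is a description. After each cell had been thinned to 5000 UMIs, at least 1 UMI of Sox2 was found in 74.1% of WT and 74.7% of cKO members, against 2.09% and 3.50% of cells in the excitatory neuron gate (10 or more UMIs of Neurod2 and Neurod6, 3601 and 3766 cells, with medians of 13860 and 13372.5 UMIs before thinning). Without thinning the shares of members were 85.3% and 85.5%. Hes5 and Aldoc, AP markers that the limits did not use, were found in 44.9% and 46.5% (Hes5) and in 68.4% and 72.9% (Aldoc) of the thinned members, and in at most 2.49% of neurons. The summed apical UMIs of a member had a median of 17 in both libraries and ran from 5 to 54 in WT and from 5 to 63 in cKO, while the summed G2/M UMIs had a median of 1 and were 0 in 38.9% of WT and 36.0% of cKO members.

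The limits also admitted other cells. At least 3 UMIs of a list of endothelial, pericyte, meningeal or microglial markers were carried by 33 WT (9.88%) and 40 cKO members (7.55%), with a median of 15875 and 14546.5 UMIs. All 6 genes of the endothelial, pericyte and meningeal lists were detected in both libraries. Their summed levels in WT and cKO members were 731 and 229 CPM for the endothelial list (most abundant gene Cldn5, 346 and 105 CPM), 584 and 314 CPM for the pericyte list, led by Rgs5 in WT at 267 CPM and by Vtn in cKO at 117 CPM, and 340 and 514 CPM for the meningeal list (Col3a1, 113 and 167 CPM). Microglial markers summed to 11.5 and 11.2 CPM, with Fcrls at 0 in both libraries and Aif1 at 0 in WT. At least 3 UMIs of the hemoglobin genes and Alas2 were found in 10.5% of WT and 13% of cKO members, against 9.39% and 13.3% of cells in the neuron gate. Their summed level was 2858 CPM in WT members and 127 CPM in cKO members, and 56 and 67.6 CPM without the members that reached 3 UMIs of a non-neural list. Removal of every member with 3 UMIs of any of these lists took out 63 WT and 104 cKO members and left 271 and 426. Of those removed, only 33 and 40 reached a list other than that of the hemoglobin genes and Alas2. Cells of the neuron gate reached that list at similar shares, so a removed member need not be a cell of another type. Ratios over the remaining members are given below as the ratio without non-neural members, a name for this filter only.

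Lists of other neural cell types were reached to different degrees. At least 2 UMIs of the ventral progenitor list, some of whose genes dorsal progenitors express too, were carried by 52 WT (15.6%) and 64 cKO members (12.1%). The antihem and lateral pallium list reached 3 UMIs in 27.8% of WT and 38.9% of cKO members, the oligodendrocyte lineage list in 6.29% and 4.15% (a summed level of 29.5 and 23.9 CPM, and of 0.612 and 1.60 CPM without non-neural members), and the list of the medial pallium and hem in 3.89% and 5.28%. The Cajal-Retzius list reached 3 UMIs in 6 WT (1.80%) and 15 cKO members (2.83%), with Reln as its most abundant gene (216 and 231 CPM). Of the ventral progenitor markers, Gsx1 was at 0 in both libraries. Sox10, Gpr17 and Nkx2-2 of the oligodendrocyte lineage, Ttr of the choroid plexus, Wnt3a of the cortical hem and Dbx1 of the antihem were at 0 in both libraries as well. At the lower limit of apical UMIs, members with 5 or 6 numbered 25 in WT and 43 in cKO, with a median depth of 5081 and 6874 UMIs and Stmn2, a neuronal tubulin regulator, at 699 and 453 CPM. Cells just outside, with 3 or 4 apical UMIs, numbered 52 and 82, with 4015 and 3145.5 UMIs and Stmn2 at 964 and 641 CPM. At the upper limit of G2/M UMIs, 24 WT and 33 cKO members held 8 or 9 (Ube2c, a mitotic ubiquitin-conjugating enzyme, at 186 and 219 CPM), and 21 and 34 cells outside held 10 or 11 (Ube2c at 216 and 175 CPM).

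Compared with all other kept cells, members were marked by radial glia and Notch effector genes, which is a description since the limits selected these cells. Of 7544 genes with at least 200 UMIs in the members, 964 (12.8%) were at least 2-fold higher in both libraries and 388 (5.14%) at least 2-fold lower. Genes too low in members to reach this minimum are not counted, so the lower count is incomplete. Among radial glia genes, 22 of 23 were at least 2-fold higher in both, with a median log2 difference of 2.64 in WT and 2.46 in cKO. Fabp7, a brain lipid-binding protein of radial glia, stood at 3242 CPM (WT members) and 4267 CPM (cKO members), against 438 and 493 CPM in other cells. Aldoc, an aldolase of radial glia and astrocytes, stood at 361 and 432 CPM against 32.1 and 42.9 CPM. The Notch effectors were higher by medians of 2.82 and 2.34, with 7 of 9 at least 2-fold higher in both.

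**Figure D1:**
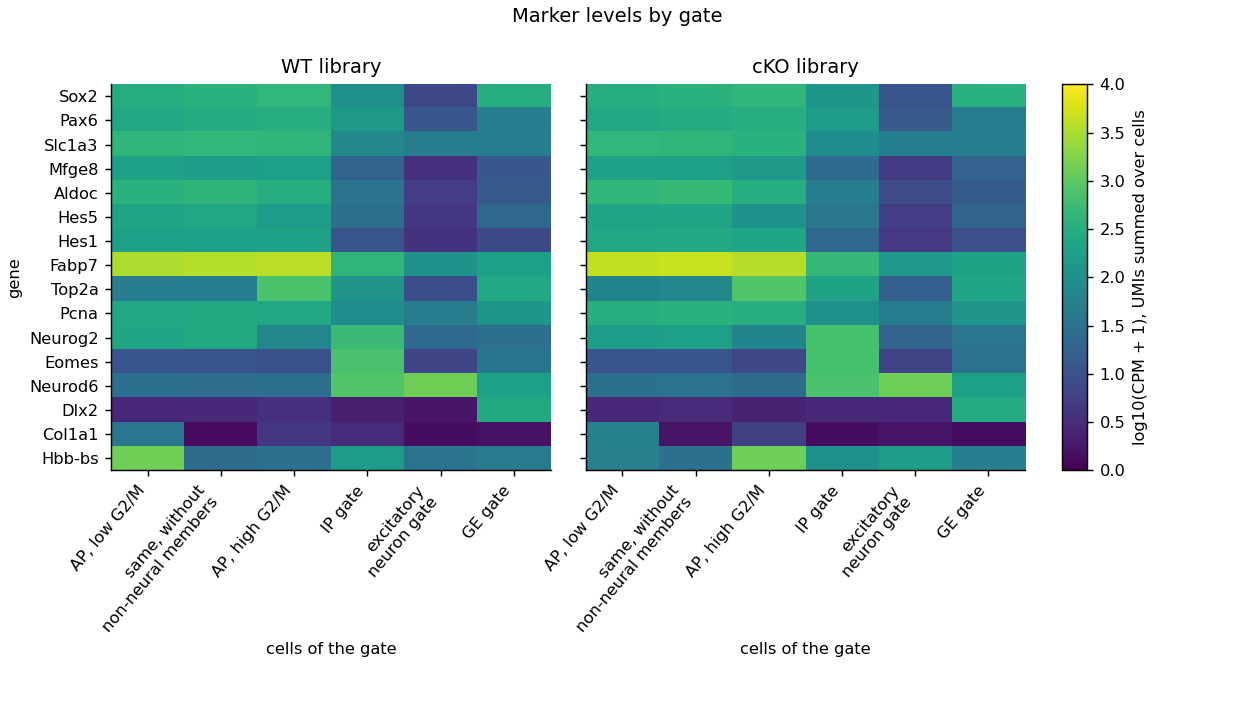
Levels of 16 marker genes (rows) in 6 sets of cells (columns) of the WT library, left, and the cKO library, right, as log10 of CPM + 1 of the UMIs summed over cells. Sox2 to Fabp7 are bright in both AP gates, Top2a is dim in the low-G2/M members and bright in the high-G2/M APs, Hbb-bs is bright in the WT members (1360 CPM) and in the cKO high-G2/M APs, and Col1a1 darkens once non-neural members are left out.

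Named by the size of their difference from other cells, the leading genes of the whole gate were meningeal (Lum, Dcn, Col1a2 and Col3a1 among the first 5), carried by the few members described above. Without non-neural members the leading genes were Ung, Pdzph1, Aldoc, Ecrg4, Tnc, Hes1, Mlc1, Dapp1, Hes5, Mt2, Pter and Ccn1. Ung encodes the uracil-DNA glycosylase that removes uracil from replicating DNA, and stood at 48.8 CPM (WT members) and 72.9 CPM (cKO members), against 4.64 and 5.75 CPM in other cells. Tnc, a matrix glycoprotein of the radial glial niche, stood at 86.3 and 86.5 CPM against 8.27 and 6.65 CPM. Of 40 S-phase genes measured, 30 were at least 2-fold higher than in other cells in both libraries. Lowest in members, in a ranking that also held genes under the UMI minimum of the counts above, were genes of neurons and interneurons. Among them were Dlx6os1 and Neurod6, which the limits used, beside Tfap2d, Slitrk1, Rasgrf1, Lrfn5 and Neurod1.

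Against the high-G2/M APs, members differed far less, with 96 of 7544 genes (1.27%) at least 2-fold higher in both libraries and 105 (1.39%) at least 2-fold lower. The lower genes were mitotic: 28 of 33 genes of the G2/M list measured were at least 2-fold lower in both, which the limit on 4 G2/M genes selected for. Plk1, a mitotic kinase, stood at 2.3 and 6.05 CPM in members and at 112 CPM in high-G2/M APs of each library. Ung was higher in members by 1.81 (WT) and 1.91 (cKO) on the log2 scale. The IP marker list was higher by medians of 1.43 in WT and 1.03 in cKO, with Neurog2, a proneural factor, at 224 and 169 CPM in members against 66.3 and 61.7 CPM. Gadd45g, a cell cycle arrest gene of newly committed cells, stood at 191 and 114 CPM against 41.2 and 38.1 CPM. Other cell types moved with them: 5 of 5 excitatory neuron markers were higher in both libraries, with medians of 0.79 in each, and 6 of 6 meningeal markers were at least 2-fold higher, with medians of 2.97 and 3.67. Reln and Nhlh2, both of Cajal-Retzius cells, were the genes most above the high-G2/M APs, at 216 and 231 CPM against 2.81 and 5.85 CPM for Reln. The S-phase list did not separate the gates in one direction, with medians of -0.33 in WT and 0.01 in cKO, and the AP markers had medians of 0.05 and 0.34.

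Members varied in their S-phase transcripts (a published list of 43 genes) and in those of the neurogenic genes Neurog2, Btg2, Gadd45g and Insm1. Each member with at least 5000 UMIs (316 WT and 505 cKO, with 18 and 25 shallower members left out) was thinned to 5000 UMIs and placed by 10 or more S-phase UMIs and by 3 or more neurogenic UMIs. Cells with many S-phase and few neurogenic UMIs were the largest range, with 129 of 316 WT members (40.8%, 35.4 to 46.5) and 295 of 505 cKO members (58.4%, 54.0 to 62.8). Cells with few S-phase and many neurogenic UMIs numbered 90 in WT (28.5%, 23.6 to 33.8) and 59 in cKO (11.7%, 9.01 to 14.8). Both kinds were high in 12.3% and 13.3% of members, and both were low in 18.4% and 16.6%. These ranges come from limits on a continuous count and are not cell types: 54 WT and 62 cKO members held 8 to 11 S-phase UMIs, and 133 and 249 held 1 to 4 neurogenic UMIs.

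Cells high in S-phase and those high in neurogenic transcripts also differed in genes that did not define them. Per 10000 UMIs, Fabp7 stood at 49.97 in WT and 49.08 in cKO cells with many S-phase and few neurogenic UMIs, and at 16.4 and 16.75 in cells with few S-phase and many neurogenic UMIs, while cells low in both held 33.66 and 50.45, and 42.3 and 77.77 without non-neural members. Aldoc stood at 6.26 and 5.77 in cells with many S-phase and few neurogenic UMIs, against 2.18 and 2.10 in those with few and many, and 1.93 and 2.02 in cells low in both (2.73 and 3.55 without non-neural members). Between the first pair of ranges, Sox4, a factor of early neuronal differentiation, ran the other way at 4.23 and 5.01 against 12.91 and 12.98, and Hmga2, a chromatin protein of young progenitors, stood at 0.87 and 1.27 against 0.16 and 0.17. Cdkn1c, a CDK inhibitor, stood at 1.79 in WT and 4.79 in cKO cells low in both kinds of transcript, and at 0.42 and 0.36 there without non-neural members. Median depth before thinning was between 11168 and 13378.5 UMIs in the ranges of all members. It was 12606 in WT and 10843 in cKO cells low in both without non-neural members.

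S-phase genes were higher in the cKO members. Over the 7544 measured genes, 230 (3.05%) had a log2 ratio of cKO over WT above 0.5 and 276 (3.66%) one below -0.5, with a median of -0.00. Without non-neural members 271 of the same genes lay above 0.5 and 176 below -0.5, and 174 and 99 when the minimum of 200 UMIs was applied anew to the smaller set of cells. Of the 40 S-phase genes measured, 40 had a ratio above 0 and 22 a ratio above 0.5, with a median of 0.50, and their summed level was 3215 CPM in WT members against 4419 CPM in cKO members (log2 ratio 0.46, 0.43 to 0.49). The median was 0.48 without non-neural members, 0.20 in high-G2/M APs and -0.08 in the GE gate. It was 0.24 when cells were thinned before the limits were applied. The G2/M list, whose level the limits held low in both libraries, had a median of 0.00, with 17 of 33 genes above 0 and 16 below. Its summed level was 4104 and 4560 CPM (0.15, 0.12 to 0.18; 0.08 without non-neural members), and 77.8% of thinned WT members (72.9 to 82.3) and 88.9% of thinned cKO members (85.8 to 91.5) held 10 or more of its UMIs, against 63.7% and 66.4% of neurons, 71.2% and 71.9% of the IP gate (3 or more Eomes UMIs) and 75.7% and 76.7% of the GE gate.

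Per cell, the S-phase UMIs after thinning had a median of 10 (WT members) and 18 (cKO members). At least 10 were found in 168 of 316 WT members (53.2%, 47.5 to 58.8) and 362 of 505 cKO members (71.7%, 67.5 to 75.6). Without thinning the shares were 87.7% and 89.4%. Without non-neural members the thinned shares were 57.9% and 76.5%, and with thinning ahead of the limits 65.8% and 77.5%. High-G2/M APs stood at 87.8% and 91.3%, near the upper end of the scale. With a limit of 20 UMIs the shares were 33.5% and 45.7% of members and 40.3% and 50.4% of high-G2/M APs. At 10 UMIs the other gates stood at 17.4% and 18.9% of the IP gate, 18.7% and 17.8% of the GE gate and 1.35% and 2.29% of neurons.

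**Figure D2:**
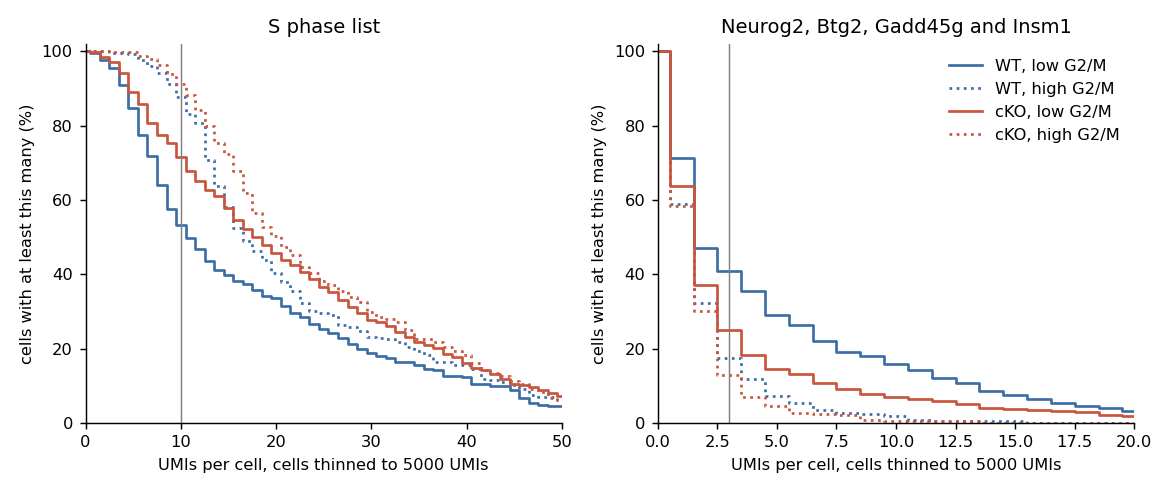
Share of cells in percent (vertical axis) with at least the number of UMIs on the horizontal axis, for the S-phase list (left) and for Neurog2, Btg2, Gadd45g and Insm1 together (right), in low-G2/M (solid) and high-G2/M APs (dotted) of the WT (blue) and cKO (red) library thinned to 5000 UMIs. The grey lines mark 10 and 3 UMIs; at 10 S-phase UMIs the solid curves stand at 53.2% and 71.7%, and at 3 neurogenic UMIs at 40.8% and 25%.

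Single S-phase genes ranged in their distance between the libraries. Cdc6, which loads the replicative helicase onto origins, stood at 12 CPM in WT (8.94 to 15.7) and 23.3 CPM in cKO members (19.7 to 27.3), a log2 ratio of 0.96 (0.49 to 1.44). Mcm6, a subunit of that helicase, stood at 139 and 191 CPM (0.46, 0.32 to 0.60), Mcm5 at 72.1 and 115 CPM (0.67, 0.48 to 0.86), and Hells, a chromatin remodeler of replicating cells, at 111 and 162 CPM (0.55, 0.39 to 0.71). Pcna, the sliding clamp of the replication fork, stood at 238 and 334 CPM (0.49, 0.38 to 0.60), and its ratio in high-G2/M APs was 0.36. Cyclin E genes, which act at the entry to S phase, were also higher in cKO members, with Ccne1 at 22.6 and 33.8 CPM (0.58) and Ccne2 at 15.9 and 27.6 CPM (0.80). Of the 14 measured G1 cyclins, CDKs and inhibitors, these were the 2 past 0.5 and none was below -0.5.

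S-phase genes are classic targets of E2F factors, and the sequences around their start sites were searched for the E2F motif. The 8 letters TTTCCCGC, TTTCGCGC, TTTGCCGC and TTTGGCGC were searched on both strands, where matches may overlap, in windows from 250 bases before to 50 bases after the start of a gene in RefSeq on GRCm38.p6. A match was found in 12 of 31 S-list promoters in the table (38.7%; 43 genes are listed), against 292 of 6068 promoters of measured genes (4.81%), 626 of all 27025 promoters (2.32%) and 2 of 47 G2/M-list promoters (4.26%). The 150 bases before the start are shown for Cdc6, the S-phase gene with the largest ratio among those with at least 200 UMIs in the members, and for Hells and Mcm6, which were also higher in cKO cultures, 5′ to 3′ on the strand of the gene, with the matches in capitals.
Cdc6, chr11:98908001-98908150, plus strand: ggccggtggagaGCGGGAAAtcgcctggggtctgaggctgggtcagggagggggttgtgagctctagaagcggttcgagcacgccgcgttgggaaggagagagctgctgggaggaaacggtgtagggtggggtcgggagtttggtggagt
Hells, chr19:38930840-38930989, plus strand: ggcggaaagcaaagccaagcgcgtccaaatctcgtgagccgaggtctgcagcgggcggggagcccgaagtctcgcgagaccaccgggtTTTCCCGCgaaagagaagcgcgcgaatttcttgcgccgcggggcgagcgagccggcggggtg
Mcm6, chr1:128359706-128359855, minus strand: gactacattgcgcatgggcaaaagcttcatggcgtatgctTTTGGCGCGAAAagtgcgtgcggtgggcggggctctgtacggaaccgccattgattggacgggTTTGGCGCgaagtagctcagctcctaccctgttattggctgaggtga
The match in Cdc6 begins 138 bases and that in Hells 62 bases before the start, and Mcm6 has 3 matches that begin between 110 and 47 bases before it, the first 2 of which overlap. A match describes the letters of the window and was not tested as a binding site.

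In the NPC cultures, with 16962903 to 22708400 counts each, 2843 of 14432 genes (19.7%) rose in cKO and 2858 (19.8%) fell at an adjusted p under 0.05 (edgeR). In such bulk samples fewer cells of a type and less RNA per cell cannot be told apart, and the cultures differed in neuronal transcripts: 5 of 6 excitatory neuron markers tested fell and 0 rose, with Stmn2 at 15.7, 13.2 and 16.4 CPM in WT and at 0.147, 0.117 and 0.193 CPM in cKO cultures (log2 fold change -6.56, SE 0.26, edgeR adjusted p = 8.22e-10). The part of these cells in the results below was not tested. Of the 42 S-phase genes tested, 20 rose and 0 fell, with 22 not past the threshold. Mcm6 stood at 33.9, 36.7 and 30.9 CPM in WT and at 36.4, 48.0 and 47.2 CPM in cKO cultures, overlapping by 1 cKO culture, with a log2 fold change of 0.38 (SE 0.12, edgeR adjusted p = 0.0197), which was lost without WT replicate 3 (0.0612), cKO replicate 2 (0.0790) or cKO replicate 3 (0.0908). Mcm5 rose from 17.1, 20.3 and 16.3 CPM to 21.8, 35.7 and 30.1 CPM (0.70, SE 0.15, edgeR adjusted p = 0.00253), and Hells from 11.2, 9.13 and 10.9 CPM to 13.8, 17.7 and 16.6 CPM (0.61, SE 0.14, edgeR adjusted p = 0.00339). The WT and cKO cultures did not overlap in either gene. Cdc6 did not pass, at 4.32, 5.07 and 3.21 CPM in WT and 3.38, 5.24 and 4.29 CPM in cKO cultures (0.04, edgeR adjusted p = 0.912). Of 52 G2/M genes tested in the cultures, 43 rose and 3 fell.

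Neurogenic transcripts were lower in the cKO members. Of the 4 IP markers measured, 4 had a ratio below 0 and 3 one below -0.5, with a median of -0.73 in members, -0.74 without non-neural members, -0.19 in high-G2/M APs and -0.03 in the GE gate. Btg2, an antiproliferative gene of neurogenic progenitors, stood at 252 CPM in WT (238 to 268) and 149 CPM in cKO (140 to 159), a log2 ratio of -0.76 (-0.89 to -0.63), and belongs to the list of immediate early genes described below as well. Gadd45g stood at 191 and 114 CPM (-0.75, -0.89 to -0.60), Insm1, a zinc finger factor that promotes basal progenitors, at 84.0 and 51.2 CPM (-0.72, -0.93 to -0.50), and Neurog2 at 224 and 169 CPM (-0.40, -0.53 to -0.28).

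Their ratios were of either sign in cells past the AP stage: in the IP gate Gadd45g was at 0.58, Neurog2 at 0.39, Btg2 at 0.21 and Insm1 at -0.08. Among proneural and differentiation genes 10 of 11 had a ratio below 0 in the members, 4 of them below -0.5. Sox4, a transcription factor of differentiating neurons, stood at 704 and 592 CPM (-0.25) and Sox11, its relative, at 464 and 439 CPM (-0.08). Dll1, the Notch ligand that committed cells present, stood at 18.4 and 10.9 CPM (-0.76, -1.25 to -0.28) on 150 UMIs in all.

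Neuronal markers did not follow: 4 of 5 measured had a ratio above 0 in the members, with the tubulin gene Tubb3 at 83.1 and 131 CPM (0.66, 0.48 to 0.84) and Stmn2 at 110 and 95.7 CPM (-0.20, -0.37 to -0.02). Before thinning, the list reached 3 UMIs in 117 WT (35.0%) and 250 cKO members (47.2%), and in 47.0% and 58.4% of the high-G2/M APs. Neurod2 and Neurod6 of this list were held to at most 3 UMIs together by the limits of both AP gates.

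Per cell, 3 or more UMIs of the 4 neurogenic genes were found in 129 of 316 thinned WT members (40.8%, 35.4 to 46.5) and 126 of 505 cKO members (25%, 21.2 to 29.0). Without thinning the shares were 62.0% and 47.0%. Without non-neural members they were 42.5% and 27.2%, and with thinning ahead of the limits 36.9% and 25.2%. When members with 2 or more UMIs of ventral markers were left out too, they were 33.8% and 23.5%. High-G2/M APs stood at 17.5% and 13%, the IP gate at 79.7% and 86.2%. Neurog2 alone had a UMI in 36.7% of thinned WT and 30.1% of thinned cKO members, against 5.50% and 5.30% in the GE gate, a lineage that lacks Neurog2, with medians of 9208 and 8457 UMIs before thinning.

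In the cultures the 4 neurogenic genes moved in different directions. Insm1 fell from 42.5, 55.6 and 60.4 CPM in WT to 14.4, 21.5 and 21.3 CPM in cKO, with no overlap (log2 fold change -1.47, SE 0.16, edgeR adjusted p = 8.89e-06). Btg2 rose from 80.5, 90.3 and 78.9 CPM to 97.9, 107 and 107 CPM (0.32, SE 0.08, edgeR adjusted p = 0.00564). Neurog2, low in all cultures, rose from 2.21, 3.23 and 3.26 CPM to 5.0, 4.78 and 4.34 CPM (0.70, SE 0.21, edgeR adjusted p = 0.0187), a call lost without WT replicate 1 (0.0622) or cKO replicate 1 (0.0652). Gadd45g did not pass, with 41.7, 54.9 and 44.0 CPM against 38.8, 40.6 and 43.5 CPM (-0.19, edgeR adjusted p = 0.191), and passed without WT replicate 1 (0.0424). Dll1 rose (0.92, edgeR adjusted p = 2.73e-06).

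**Figure D3:**
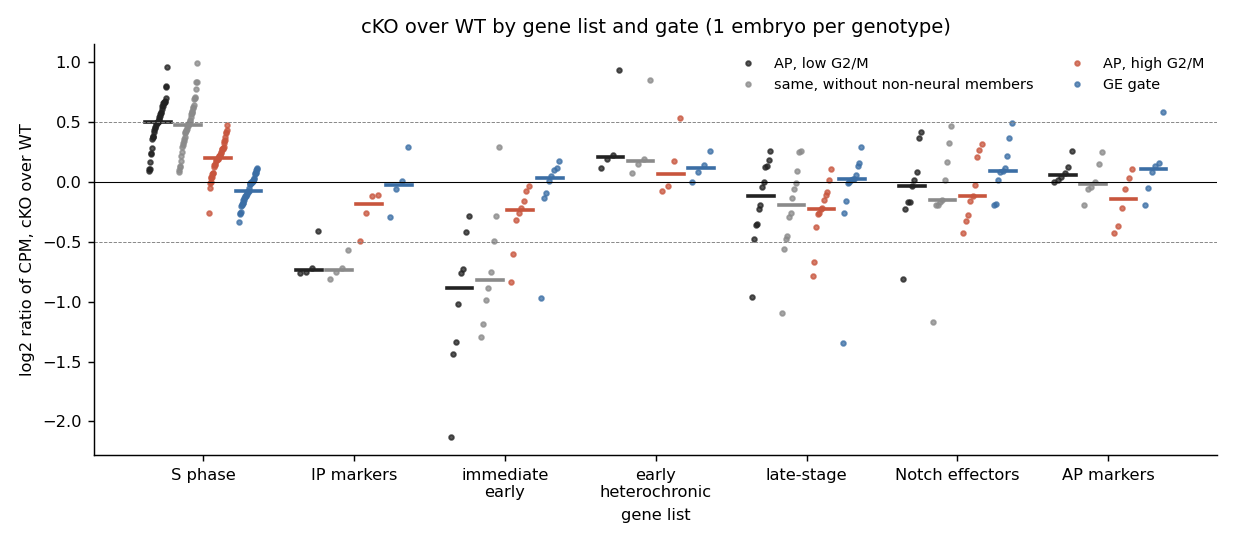
Log2 ratio of CPM, cKO over WT (vertical axis), of each measured gene (points) of 7 gene lists in low-G2/M members, the same without non-neural members, high-G2/M APs and the GE gate, with 1 embryo per genotype and bars at the medians. In members the S-phase points all lie above 0 (median 0.50) and the IP marker and immediate early points all lie below 0 (medians -0.73 and -0.89), while the GE medians of these 3 lists lie between -0.08 and 0.03. Btg2 is a point of both the IP marker and the immediate early list.

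AP markers differed little between the libraries, as did most radial glia genes. The 6 AP markers had a median ratio of 0.06, with 0 past 0.5 in either direction, and 4 of them (Sox2, Pax6, Slc1a3 and Mfge8) belong to the sum that chose the members, which fixed part of this likeness. Of the 23 radial glia genes 1 was above 0.5 and 1 below -0.5, with a median of 0.12. Fabp7 stood at 3242 CPM in WT (3189 to 3296) and 4267 CPM in cKO (4216 to 4317), a ratio of 0.40 (0.37 to 0.43), against -0.05 in high-G2/M APs, and at 0.12 with thinning ahead of the limits. Ptn, a secreted growth factor of radial glia, stood at 1684 and 2037 CPM (0.27). Mt3, a metallothionein, stood at 354 CPM in WT (336 to 372) and 666 CPM in cKO (646 to 686), a ratio of 0.91 (0.83 to 1.0), with 0.43 in high-G2/M APs and 1.14 in the IP gate.

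The 9 Notch effectors measured had ratios on both sides of 0, 4 above and 5 below, with a median of -0.03. Hes1, a repressor of proneural genes, stood at 186 CPM in WT (173 to 199) and 239 CPM in cKO (227 to 251), a ratio of 0.36 (0.24 to 0.49), and its ratios were 0.47 without non-neural members and 0.37 in the GE gate (-0.07 to 0.82). Hes5, the other main effector, stood at 212 and 214 CPM (0.01, -0.11 to 0.14), and its ratio was -0.19 without non-neural members and -0.43 in high-G2/M APs. Id4, an inhibitor of bHLH factors, stood at 621 and 830 CPM (0.42), and Id3, its relative, at 83.6 and 47.8 CPM (-0.81, -1.03 to -0.58). Of 9 Notch receptors, ligands and regulators, 7 had a ratio below 0 and 1 was past -0.5, the fringe enzyme Mfng (-0.62), which stood at -0.01 without non-neural members. Notch1 stood at 175 and 156 CPM (-0.17) and Notch2 at 148 and 143 CPM (-0.05). Apical junction and polarity genes, which hold the radial glia at the ventricle, had a median of -0.10, with 9 of 11 below 0 and 1 below -0.5, and hypoxia and glycolysis genes one of 0.04, with 4 of 8 below 0.

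In the cultures Hes1 had the largest rise of the Notch effectors named here, from 4.41, 5.24 and 5.09 CPM in WT to 31.3, 36.6 and 37.3 CPM in cKO, with no overlap (log2 fold change 2.84, SE 0.13, edgeR adjusted p = 2.54e-09). Hes5 rose from 75.6, 93.2 and 62.2 CPM to 118, 110 and 96.1 CPM (0.49, SE 0.12, edgeR adjusted p = 0.00618), a call lost without WT replicate 1 (0.131). Hey1 rose as well (0.45, edgeR adjusted p = 0.000903), and Id4 fell (-1.07, edgeR adjusted p = 5.3e-06). In all, 4 of 9 Notch effectors rose and 3 fell, and of 23 radial glia genes 7 rose and 9 fell, against 19.7% and 19.8% of all genes tested. Mt3 fell from 230, 353 and 257 CPM to 132, 110 and 134 CPM (-1.16, SE 0.14, edgeR adjusted p = 4.11e-05), with no overlap. Fabp7 rose (0.75, edgeR adjusted p = 0.000941) and Aldoc fell (-0.89, edgeR adjusted p = 8.91e-06). Sox2 is listed at 0 counts in each of the 6 cultures, inside the span of the overlapping Sox2ot, and was not tested.

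Progenitors change their gene expression as neurogenesis proceeds, with the RNA-binding and chromatin proteins of the Lin28, Igf2bp and Hmga families declining and nuclear factor I (NFI) genes increasing. Of the early list, 4 of 7 genes reached 200 UMIs in members, all with a ratio above 0 and 1 above 0.5 (median 0.21, and 0.02 with thinning ahead of the limits). Hmga2 stood at 52.5 CPM in WT (45.9 to 59.8) and 100 CPM in cKO members (92.7 to 108), a ratio of 0.93 (0.71 to 1.16), with 0.86 without non-neural members, 0.53 in high-G2/M APs, 0.98 in the IP gate and 0.26 in the GE gate (-0.24 to 0.77). Igf2bp1 stood at 87.3 and 99.5 CPM (0.19, 0.00 to 0.38) and Igf2bp2 at 66.8 and 78.1 CPM (0.23, 0.02 to 0.44). Lin28b, at 2.76 and 3.41 CPM, and Lin28a, at 0 and 0.155 CPM, were too low to compare.

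Among the 12 late-stage genes 5 had a ratio above 0 and 7 below, with 1 past -0.5 and a median of -0.12. Without non-neural members 3 lay above 0 and 9 below, with 2 past -0.5 and a median of -0.20. Dbi, which the study names among late-stage genes that fell in its RNA-seq of NPCs, was higher in cKO members, at 2307 and 2626 CPM (0.19, 0.15 to 0.22). Its ratio was 0.09 without non-neural members, 0.02 in high-G2/M APs and 0.29 in the GE gate (0.22 to 0.36). Nfix stood at 580 CPM in WT (557 to 603) and 418 CPM in cKO (402 to 434), a ratio of -0.47 (-0.55 to -0.39), and Nfib at 1676 and 1435 CPM (-0.22, -0.27 to -0.18). Nfia stood at 1176 and 1031 CPM (-0.19). Zbtb20, a repressor of later progenitors, stood at 998 and 784 CPM (-0.35, -0.41 to -0.29), and Nedd4, a ubiquitin ligase, at 727 and 566 CPM (-0.36, -0.43 to -0.29). In high-G2/M APs these ratios were -0.26 for Nfix, -0.23 for Nfib, -0.27 for Zbtb20 and -0.38 for Nedd4. In the GE gate Nfib was at 0.03 and Nedd4 at 0.00, while Nfix was at -0.26 and Zbtb20 at -0.16 there too. Within the members with many S-phase and few neurogenic UMIs, Nfix stood at 5.36 per 10000 UMIs in WT and 4.40 in cKO. Zbtb20 stood there at 10.68 and 7.99, and Nedd4 at 7.57 and 5.4. The mix of ranges differed between the libraries, and its part in the ratios over all members was not tested.

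The cultures gave the same sign for Hmga2, Nfix, Zbtb20, Nfib and Nedd4. Hmga2 rose from 0.811, 0.891 and 1.12 CPM in WT to 6.13, 7.11 and 5.83 CPM in cKO (log2 fold change 2.74, SE 0.23, edgeR adjusted p = 1.06e-06), and 3 of 5 early genes rose and 0 fell. Nfix fell from 423, 499 and 582 CPM to 320, 398 and 348 CPM (-0.50, SE 0.11, edgeR adjusted p = 0.0035), and Zbtb20 from 187, 160 and 237 CPM to 137, 132 and 127 CPM (-0.56, SE 0.11, edgeR adjusted p = 0.00163). Nfib fell from 407, 370 and 422 CPM to 351, 314 and 302 CPM (-0.31, SE 0.09, edgeR adjusted p = 0.0112), a call lost without cKO replicate 2 (0.0518) or cKO replicate 3 (0.0795). Nedd4 fell from 1142, 1006 and 1026 CPM to 868, 840 and 843 CPM (-0.31, SE 0.08, edgeR adjusted p = 0.00856), a call lost without cKO replicate 3 (0.0530). The WT and cKO cultures overlapped in none of these 5 genes, and 9 of 12 late-stage genes fell and 1 rose. Nfia did not pass (0.09, edgeR adjusted p = 0.484).

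**Figure D4:**
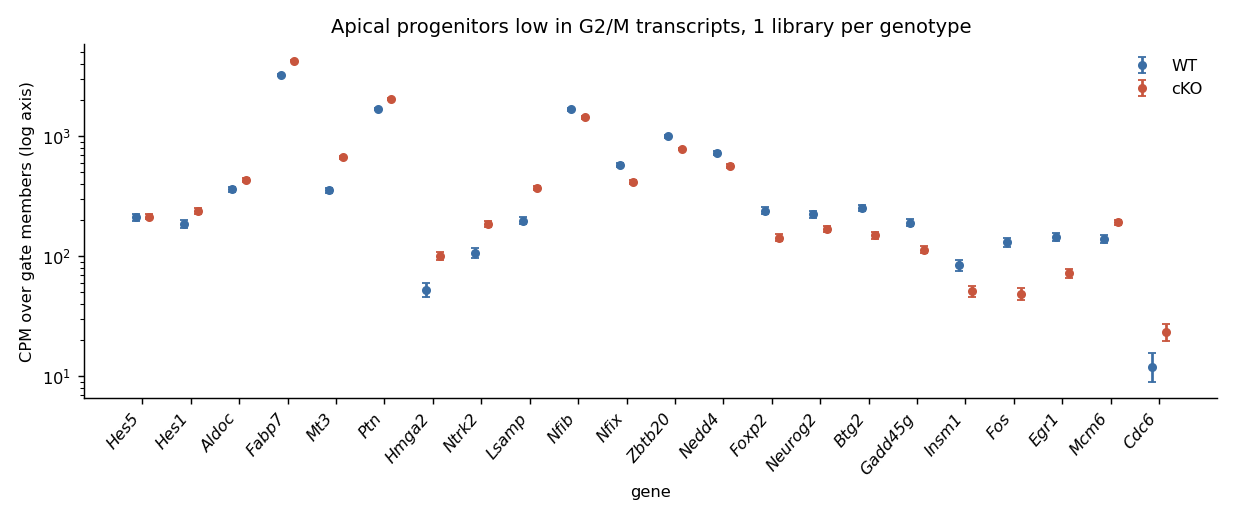
CPM of 22 genes (horizontal axis) summed over the low-G2/M members of the WT (blue) and cKO (red) library, on a log axis, with exact Poisson 95% intervals that cover counting error and not the spread between embryos. The red point stands above the blue one for Hmga2 (100 against 52.5), Mt3, Lsamp and Ntrk2 and below it for Nfix, Foxp2, Btg2 and Fos (48.2 against 131), while the Hes5 points nearly coincide.

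Immediate early genes, which cells switch on within minutes of growth factor stimulation or tissue dissociation, were lower in the cKO members. All 8 measured had a ratio below 0 and 6 were below -0.5, with a median of -0.89 (-0.82 without non-neural members, -0.54 when members with ventral markers were left out too), -0.24 in high-G2/M APs and 0.03 in the GE gate. Fos, an AP-1 subunit, stood at 131 CPM in WT (120 to 142) and 48.2 CPM in cKO (43.0 to 53.9), a ratio of -1.44 (-1.64 to -1.23), and at least 1 UMI was found in 23.4% of thinned WT and 15.6% of thinned cKO members against 10.2% and 6.78% of neurons. Egr1, a zinc finger factor of the ERK response, stood at 146 and 72.1 CPM (-1.02, -1.19 to -0.84), and Ier2 at 133 and 80.5 CPM (-0.73, -0.90 to -0.55). Junb stood at 68.4 and 15.7 CPM (-2.13), and at -0.98 without non-neural members, while Dusp1, a phosphatase of the same response, went from -0.41 to 0.29 without them. The part of dissociation in these levels was not tested.

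In the cultures 12 of 12 immediate early genes rose. Fos rose from 54.9, 60.0 and 81.1 CPM in WT to 605, 681 and 684 CPM in cKO (log2 fold change 3.33, SE 0.13, edgeR adjusted p = 7.31e-10). Egr1 rose from 57.2, 56.5 and 60.0 CPM to 1000, 1088 and 1064 CPM (4.18, SE 0.09, edgeR adjusted p = 1.09e-12), and Ier2 from 9.14, 10.1 and 8.39 CPM to 105, 115 and 121 CPM (3.63, SE 0.11, edgeR adjusted p = 4.13e-11). No culture of one genotype overlapped with the other in these 3 genes, and each of them was lower in the cKO members than in the WT members.

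**Figure D5:**
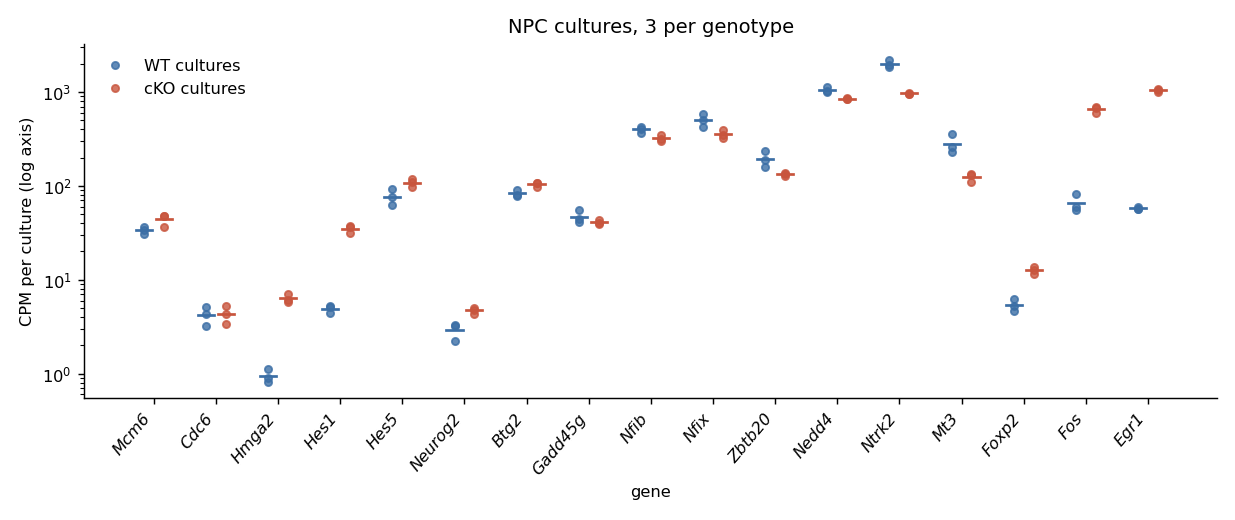
CPM of 17 genes (horizontal axis) in each of the 3 WT (blue) and 3 cKO (red) NPC cultures, on a log axis, with bars at the mean. Egr1, Fos, Hes1 and Hmga2 stand far apart between the genotypes, Nfib, Nfix, Zbtb20 and Nedd4 lie lower in each cKO culture by a smaller distance, and the Cdc6 cultures overlap.

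Growth factor and morphogen receptors had a median ratio of 0.28 over 13 genes, 10 above 0 and 2 above 0.5. Without non-neural members the median was 0.19, with 7 above 0, 6 below and 1 above 0.5. Ntrk2, the receptor for BDNF, stood at 107 CPM in WT (97.3 to 117) and 185 CPM in cKO members (175 to 196), a ratio of 0.80 (0.64 to 0.95), with 0.98 in high-G2/M APs and 0.16 in the GE gate. Fzd8, a Wnt receptor of the lateral pallium, stood at 64.7 and 93.5 CPM (0.53), with 0.47 in the GE gate. In the cultures Ntrk2 fell from 1939, 1863 and 2190 CPM to 963, 963 and 969 CPM (-1.05, SE 0.09, edgeR adjusted p = 1e-06), and of 18 receptors 7 rose and 7 fell.

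Of the 8 dorsal pallium factors measured, 4 had a ratio above 0 and 4 below, with a median of 0.01, while the antihem and lateral pallium list was higher in the cKO members. All 3 of its measured genes had a ratio above 0 and 2 one above 0.5, with a summed level of 184 and 254 CPM (log2 ratio 0.46, 0.34 to 0.59), and the summed ratio was 0.38 in high-G2/M APs and 0.79 in the GE gate. Lhx2 stood at 412 and 406 CPM (-0.02) and Emx2 at 89.3 and 85.3 CPM (-0.07). Nr2f1, a nuclear receptor graded along the cortex, stood at 257 and 376 CPM (0.55, 0.44 to 0.65), and its ratio was 0.59 in high-G2/M APs and 0.66 in the GE gate. Sfrp2, a secreted Wnt inhibitor of the antihem, stood at 35.2 and 56.6 CPM (0.68, 0.41 to 0.97) and had a ratio of -0.24 in the GE gate (-0.73 to 0.26). The region from which the cells of each embryo were cut moves with genotype in these libraries and was not tested.

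Lsamp, Ncam2 and Epha3, genes of cell adhesion and guidance, were higher in the cKO members. Lsamp, an IgLON adhesion protein, stood at 199 CPM (WT) and 369 CPM (cKO) (0.89, 0.78 to 1.01), with 0.58 in high-G2/M APs and 0.15 in the GE gate. Ncam2, an adhesion molecule, stood at 134 and 235 CPM (0.81, 0.67 to 0.95). Epha3, an ephrin receptor, stood at 60.8 and 124 CPM (1.03, 0.83 to 1.24) against 0.15 in high-G2/M APs. Foxp2, a forkhead factor, stood at 240 and 143 CPM (-0.74, -0.87 to -0.62), and Tcf4, an E protein, at 2226 and 1687 CPM (-0.40, -0.44 to -0.36), while the cultures gave 0.11 for Tcf4 (edgeR adjusted p = 0.331). In the cultures Ncam2 rose (0.68, edgeR adjusted p = 4.54e-05), as did Epha3 (0.67, edgeR adjusted p = 0.000172), and Foxp2 rose from 6.21, 4.62 and 5.26 CPM to 12.6, 13.5 and 11.6 CPM (1.22, edgeR adjusted p = 4.07e-05). Lsamp did not pass (-0.04, edgeR adjusted p = 0.709).

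The lowest ratios in the members, with sex-linked genes left out, belonged to blood and vessel genes: Hbb-bs stood at 1360 and 55 CPM (-4.63), at 0.22 without non-neural members and at 5.55 in high-G2/M APs. Junb (-2.13) and Dct were also among the lowest 10. Once non-neural members were left out, the lowest ratios were those of Dct, Rmst, Kcnip1, Ecrg4, Igfbpl1 and Lef1. Dct, a melanin synthesis enzyme also found in radial glia, stood at 39.8 CPM in WT (34.1 to 46.2) and 9.15 CPM in cKO (6.96 to 11.8), a ratio of -2.12 (-2.57 to -1.69), and its ratio was -2.99 in high-G2/M APs and -1.69 in the GE gate, where the interval included 0 (-4.27 to 0.45). Ecrg4 stood at -1.19 in members and at -1.20 in the GE gate. Rmst, a long noncoding RNA, stood at 72.3 and 21.1 CPM (-1.78), Kcnip1 at 90.2 and 33.8 CPM (-1.42), Igfbpl1 at 134 and 58.8 CPM (-1.18) and Lef1, a transcription factor of Wnt signaling, at 62.4 and 27.3 CPM (-1.19), with GE ratios of 0.14, -0.02, -0.08 and -0.10. In the cultures Igfbpl1 fell from 26.6, 30.5 and 34.6 CPM to 8.24, 6.99 and 8.49 CPM, with no overlap (-1.95, SE 0.13, edgeR adjusted p = 1.4e-07), and Kcnip1 did not pass (0.14, edgeR adjusted p = 0.297).

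The highest ratios belonged to Lrp1b, Grm8, Bc1, Ntng1 and Lum. Lrp1b, a lipoprotein receptor family member, stood at 20.3 CPM in WT (16.2 to 25) and 74.4 CPM in cKO (67.9 to 81.4), a ratio of 1.88 (1.55 to 2.22), with 1.48 in high-G2/M APs and 0.61 in the GE gate, and it rose in the cultures (0.39, edgeR adjusted p = 0.00465). Grm8, a glutamate receptor, stood at 10.6 and 34.4 CPM (1.70), with 1.09 in the GE gate. Ntng1, a netrin family member, stood at 18.9 and 52.7 CPM (1.48), and rose in the cultures (1.14, edgeR adjusted p = 0.000684). Its ratio was 0.23 in high-G2/M APs (-0.07 to 0.52) and -0.49 in the GE gate (-0.79 to -0.19). Camk2a, Slc15a2 and Wnt7b, with ratios of 1.14, 1.05 and 1.06, had GE ratios of 0.93, 1.18 and 0.92, so that these differences between the embryos were found outside the Emx1-Cre domain too.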

How the data were processed

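For scRNA-seq of 1 WT and 1 cKO embryo the authors deposited UMI counts by gene and barcode as Cell Ranger 7.0.0 wrote them, not normalized (Chromium 3′ kit), 8289 barcodes with 100172392 UMIs in WT and 9659 with 111313526 UMIs in cKO, more than the recovered cells the methods state. Their further removal of low-quality cells is not part of the files. For bulk RNA-seq they deposited raw counts per gene from quality-filtered paired reads aligned with HISAT2 to mm10; the counting program, its annotation and strand setting are not stated in the sources used here. The LACE-seq was not analysed here. No column was left out for want of a sample (0 such columns).

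UMIs were summed over the cells of each gate; CPM have exact Poisson, ratios exact conditional and shares exact binomial 95% intervals. A count of 0 allows 3 counts. Genes with at least 200 UMIs in the members were counted and ranked, and 0.5 on the log2 scale was the fold used. The rankings of genes lower in members than in other cells or high-G2/M APs also hold genes under that minimum, such as Dlx6os1 and Plk1. Cells were thinned to 5000 UMIs with a fixed seed. Doublets were called with Scrublet (scanpy 1.11.5) and removed as an alternative. S and G2/M lists are those of Seurat 5.3.0. Cultures were compared in R 4.3.3 with edgeR 4.0.16 (filterByExpr, TMM, robust quasi-likelihood fit, Benjamini-Hochberg at 0.05), with DESeq2 1.42.0, RLE scaling, a filter of 1 count, replicate numbers as a block and each culture left out as alternatives; culture CPM use TMM-scaled library sizes, and SE come from the F statistic. Both steps were tested on simulated data. The p-values measure the spread between cultures, which may be technical.

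Named genes were the genes of the limits and AP markers, genes that the study names in APs, members of lists of 16 or fewer genes with at least 200 UMIs, and from the rankings by log2 ratio the highest 12 and lowest 8 against other cells, 8 and 8 against high-G2/M APs and 10 and 10 between genotypes, without predicted, sex-linked and mitochondrial genes. The same rankings without non-neural members, single S-phase and radial glia genes, and Ube2c, Dll1, Lin28a, Lin28b and Syncrip were added after their values were seen. Members, limits and lists were chosen with earlier results of these data known, so that no count over a list is independent evidence. The removal of non-neural members alone was also chosen after seeing the data. Values of some listed genes, and the share of members that reached the GE and GABAergic list, are not reported here.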

Additional observations from a re-analysis of the deposited data

Results flagged for a closer look

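For 10 of 95 named genes checked, the ratio of cKO over WT in the members lay past 0.5 in one direction while the NPC cultures passed the edgeR test in the other. The difference between the experiments was not tested. The ratio in members against the log2 fold change in cultures was -1.44 against 3.33 for Fos, -1.02 against 4.18 for Egr1, -0.73 against 3.63 for Ier2 and -2.13 against 4.05 for Junb, all immediate early genes; of the 8 genes of that list measured in members, 6 met the same condition, Btg2 of the neurogenic genes among them. Mt3 stood at 0.91 against -1.16 and Ntrk2 at 0.80 against -1.05. Foxp2 stood at -0.74 against 1.22, Btg2 at -0.76 against 0.32, Dll1 at -0.76 against 0.92, and Fzd8 at 0.53 against -1.43. Among 7192 genes measured in the members and tested in the cultures, 243 were past 0.5 in the members and past the edgeR test in the cultures. Of these 243, 105 had opposite signs with no overlap between the cultures, so opposite signs were not particular to the named genes. The members come from 1 embryo per genotype and the cultures from cells grown with EGF and bFGF, so that genotype effects in the 2 settings were measured on different cells. With 3 cultures a group, no search for an outlying culture was made.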

How the results depend on the processing

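Of the main values in the cells, 83 alternatives kept the value and 28 moved it. A share was kept inside its counting interval, a list median within 0.1 and a count of genes within 1.5 times. A change of direction could be scored only for the S-phase median, which stayed above 0 in each setting. In the main setting 276 genes lay below -0.5 and 230 above 0.5. The larger count lay above 0.5 with thinning, with either removal of members and with each cell weighted equally (226 above, 199 below). Of the values of single genes and of other lists, 1216 were kept and 145 moved, 38 of these with thinning and 34 without ventral or non-neural members. With cells thinned to 5000 UMIs before the limits, the members were 6.74% of WT and 8.11% of cKO cells, 65.8% and 77.5% held 10 or more S-phase UMIs, the S-phase median was 0.24, and 135 genes lay above 0.5 and 123 below -0.5. Kcnq3, a potassium channel gene, changed sign from 1.25 to -0.58 with thinning, and without non-neural members Hbb-bs went from -4.63 to 0.22 and the pericyte list median from -1.09 to 0.49. A limit of 8 apical UMIs gave shares of 3.89% and 5.28%, a limit of 5 G2/M UMIs 3.53% and 4.94%, and a limit of 20 G2/M UMIs 5.60% and 7.28%, with 60.0% of WT members at 10 S-phase UMIs. Without ventral or non-neural members the shares were 3.67% and 5.50%, those with S-phase UMIs 65.7% and 82.4%, that with neurogenic UMIs 33.8% in WT, the S-phase median 0.39, and 123 genes lay above 0.5 and 86 below -0.5. Without non-neural members alone, 76.5% of cKO members held 10 S-phase UMIs and 99 genes at 200 UMIs in the remaining cells lay below -0.5. A minimum of 50 UMIs gave 575 genes above 0.5 and 724 below -0.5, and one of 1000 UMIs 45 and 40.

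In the cultures, 2068 to 3070 genes rose and 2040 to 3275 fell when a culture was left out, 2787 and 2895 with RLE scaling, 2792 and 3114 with genes of at least 1 count, and 2709 and 2823 with DESeq2. Same-numbered cultures correlated by 0.264, -0.0466 and 0.116 in their deviations from the group means, and differently numbered ones by -0.344 to 0.286. With 3 cultures a group these values cannot settle whether the numbers pair the cultures. The main fit used no pairing, and with the replicate block 3189 genes rose and 3216 fell. Of the values of single genes in the cultures, 841 kept their call, 44 lost it and 15 gained one. Depth limits the cells: 3 counts are 0.691 CPM in WT and 0.465 CPM in cKO members, and with 1 embryo per genotype no interval covers the spread between embryos.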
